A study of Mus musculus with 6 samples.

Results

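The acyl-CoA synthetases Acsl1, Acsl3, Acsl4, Acsl5, Acsl6, Acsbg1, Acss1, Acss2, Acss3 and Acsf2 were followed in ribosome-bound mRNA of the adult mouse dentate gyrus. The genes were taken by name, and all 10 were found among the 37620 genes of the deposited count tables. All 10 also passed the filter on low counts (above 1 CPM, the count scaled to library size, in at least 1 sample), as did 15056 genes in all. The samples came from Gli1CreERT2:Rpl22HA f/+ mice that carried either 2 intact (Klf9 +/+) or 2 floxed (Klf9 f/f) copies of the transcription factor gene Klf9, with 3 samples of each genotype. Each sample pooled the 6 dentate gyri of 3 mice aged 2 to 3 months, with tissue collected 4 days after tamoxifen (3 injections of 250 mg/kg, 12 hr apart), which mice of both genotypes received. In this RiboTag design the Gli1 promoter drives a tamoxifen-activated Cre that switches on an HA-tagged ribosomal protein RPL22, and an anti-HA antibody then recovers tagged ribosomes with their mRNA. The same Cre also recombines the floxed Klf9 in Klf9 f/f mice. By the study's account the driver targets radial glia-like stem cells (RGLs) and also astrocytes. The study counts progeny of the first RGL division in its profile as well. The library names form 2 series, each with both genotypes. Series YTa22 holds replicates 1 and 2 of each genotype, and series YTa32 holds replicate 3 of each. The replicate numbers were assigned here within each genotype and pair no samples.

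Acyl-CoA synthetases join a fatty acid, or acetate, to coenzyme A at the cost of ATP. Only the resulting thioester can enter fatty acid oxidation, membrane and storage lipid synthesis, or protein acylation. The Acsl enzymes act on long-chain fatty acids, Acsbg1 on long and very long chains, the Acss enzymes on acetate and other short chains, and Acsf2 on medium chains. Paralogs also differ in place: Acss1, Acss3 and Acsf2 are mitochondrial, Acss2 is cytosolic and nuclear, and Acsl3 sits on the endoplasmic reticulum and lipid droplets. Acsbg1 and Acsl6 are known as brain-rich members of the family, and Acsbg1 as a gene of astrocytes.

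The reads counted on genes ranged from 52188635 to 66343759 per sample in series YTa22 and from 21594714 to 27594529 in series YTa32. Klf9 itself gave 200.9 and 203.9 CPM in the Klf9 +/+ samples of YTa22 and 139.0 CPM in that of YTa32. The Klf9 f/f samples gave 114.3 and 121.3 CPM in YTa22 and 120.0 CPM in YTa32. Its groups did not overlap, in the direction of the labels (two-sided exact permutation test over 3 against 3 samples, where the smallest possible value was reached, p = 0.1). A single count per gene also holds reads from parts of Klf9 that remain after recombination. Of the marker lists, 14 of 14 astrocyte and 11 of 11 RGL markers passed the filter and none had 0 reads in any sample. The summed level of the astrocyte markers was 13292 to 16898 CPM in Klf9 +/+ and 16645 to 19789 CPM in Klf9 f/f, and that of the RGL markers was 4363 to 5661 CPM and 5199 to 6752 CPM. Granule neuron markers summed to 1415 to 2075 CPM and 1448 to 1612 CPM. They were expected mainly outside the tagged cells, although these include progeny of the first RGL division by the study's account. Choroid plexus markers ranged from 139 to 2669 CPM in Klf9 +/+ and from 21.7 to 410 CPM in Klf9 f/f, and all 10 of them were lower in Klf9 f/f at the threshold used below.

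Acsl3 and Acsbg1 dominated the family in every sample. Levels of different genes were compared as TMM-scaled CPM per kilobase of merged exons (GENCODE M1 annotation, mm9), and each gene's share is its part of the sum over the 10 genes. Acsl3 (ENSMUSG00000032883, plus strand of chromosome 1 of mm9, 78654400 to 78703562) stood at 166 ± 31.9 CPM per kb (SD, n = 6) and held 45.0% ± 5.09 (SD, n = 6) of the family, from 39.2% to 51.8%. Acsbg1 (ENSMUSG00000032281, minus strand of chromosome 9, 54452684 to 54509677) stood at 129.4 ± 29.7 CPM per kb (SD, n = 6) and held 34.7% ± 2.28 (SD, n = 6). Acsl3 lay above Acsbg1 in 6 of 6 samples, by 1.04- to 1.65-fold, although the ranges of both genes over the samples overlapped. Together they made up 79.7% of the family, with a range of 73.9% to 83.2%.

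**Figure D1:**
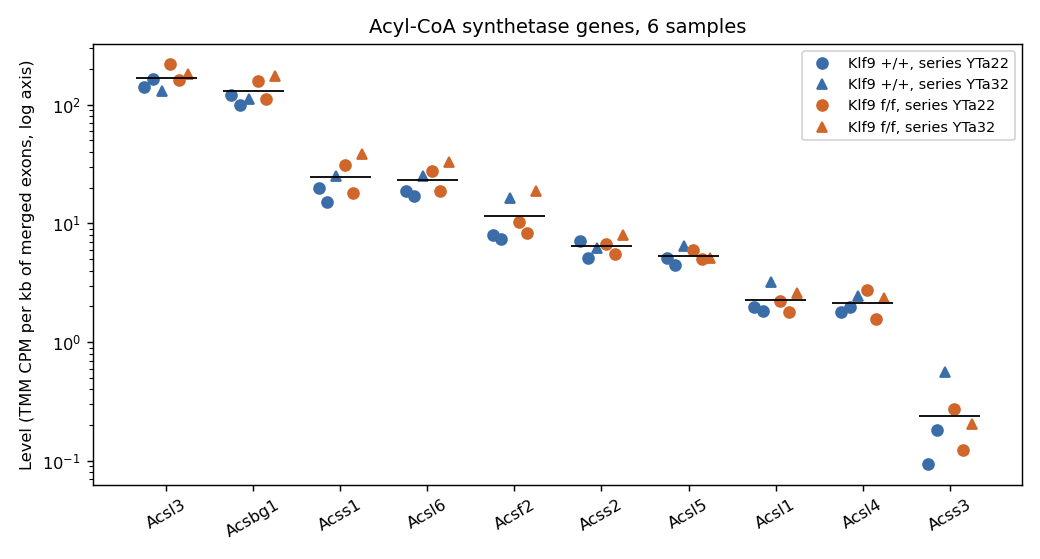
Level of each acyl-CoA synthetase gene in each of the 6 samples, in TMM CPM per kb of merged exons on a log axis; color gives the genotype, point shape the library series, and the bar is the mean of 6 samples. Acsl3 and Acsbg1 stand above the other 8 genes in every sample, and Acss3 stands lowest, with means from 166 to 0.240 CPM per kb.

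Below this pair came a step of 5.26-fold. Acss1 (ENSMUSG00000027452, minus strand of chromosome 2, 150443841 to 150494236) stood at 24.6 ± 8.89 CPM per kb (SD, n = 6). Acsl6 (ENSMUSG00000020333, plus strand of chromosome 11, 54117300 to 54178258) stood at 23.3 ± 6.12 CPM per kb (SD, n = 6). These neighbors did not differ beyond their spread, since Acss1 was the higher in 3 of 6 samples. Acsf2 followed at 11.5 ± 4.78, Acss2 at 6.42 ± 1.02 and Acsl5 at 5.36 ± 0.735 CPM per kb (SD, n = 6 each). Acsl6 lay above Acsf2 in 6 of 6 samples and Acsf2 above Acss2 in 6 of 6, both with overlapping ranges, whereas Acss2 and Acsl5 were not ordered the same way in all samples (5 of 6). Acsl5 lay above Acsl1 in 6 of 6 samples, by 2.37-fold in the means and with no overlap. Acsl1, a widely expressed long-chain enzyme, and Acsl4, which prefers arachidonate, were low at 2.26 ± 0.548 and 2.15 ± 0.455 CPM per kb (SD, n = 6 each) and were not distinguishable, with Acsl1 the higher in 4 of 6 samples. Acss3, which activates propionate, was lowest at 0.240 ± 0.169 CPM per kb (SD, n = 6), from 21 to 82 reads per sample.

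The order in the middle of the family depended on the gene length used. The merged exons of Acsl6 (9914 bases), Acss2 (10163 bases) and Acsl1 (9449 bases) are long beside those of Acsl3 (3601 bases) and Acsbg1 (3604 bases), while the merged coding bases of the 10 genes run from 1845 to 2361. Per kilobase of coding sequence, a choice added after the data were seen, Acsl6 took 13.9% of the family in place of 6.24% and lay above Acss1 in 6 of 6 samples. On that scale Acss2 passed Acsf2 in 5 of 6 samples, and Acsl5 and Acsl1 could not be ordered (3 of 6). Acsl3 and Acsbg1 kept the first and second places, with 39.8% and 28.6%. Acsl3, Acsbg1, Acsl6 and Acss1 together held 92.4% per kilobase of exon and 89.2% per kilobase of coding sequence.

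**Figure D2:**
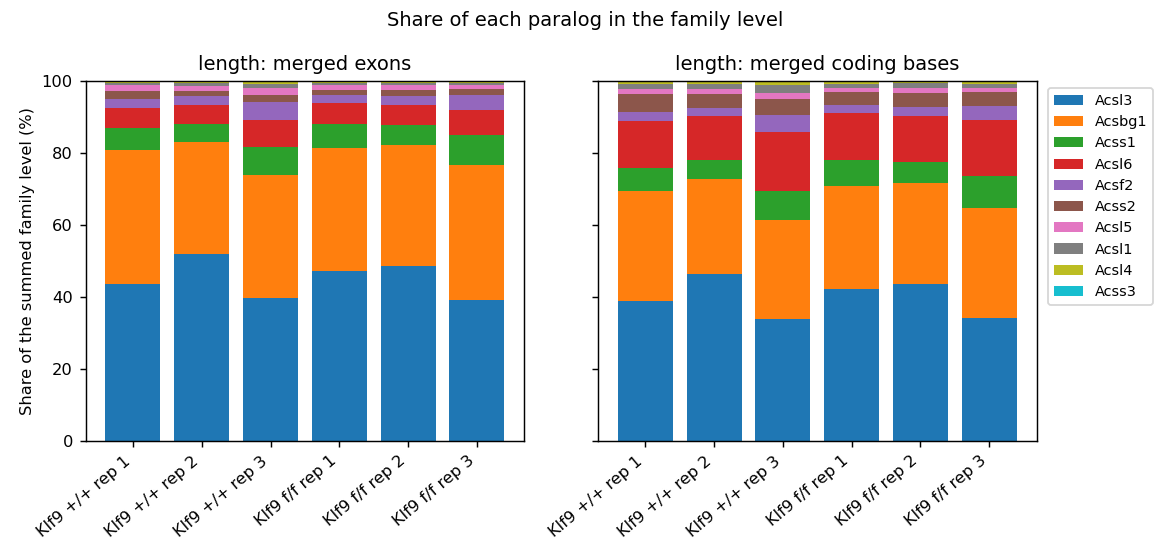
Share of each gene in the summed family level of each sample, in percent, with level per kb of merged exons (left) and per kb of merged coding bases (right). Acsl3 and Acsbg1 fill 73.9% to 83.2% of each bar on the left, and the Acsl6 share is larger on the right.

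The shares of the leading pair were close between the genotypes. In Klf9 +/+ samples Acsl3 held 45.0% ± 6.21 of the family, and in Klf9 f/f samples 45.0% ± 5.11 (SD, n = 3 each). Acsbg1 held 34.3% ± 2.84 and 35.1% ± 2.10 (SD, n = 3 each). Both differences were smaller than the spread between samples. The larger split was between library series, with Acsl3 at 43.7% to 51.8% in YTa22 and at 39.2% and 39.6% in YTa32.

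Per kb of exon, the summed level of the family was higher in Klf9 f/f. It was 325.0, 315.8 and 327.2 CPM per kb in Klf9 +/+ replicates 1, 2 and 3, and 465.5, 333.1 and 463.1 CPM per kb in Klf9 f/f replicates 1, 2 and 3. On this scale all Klf9 f/f sums lay above all Klf9 +/+ sums, but Klf9 f/f replicate 2 sat just above the controls and far from the other Klf9 f/f samples. With no division by length the genotypes overlapped, with Klf9 f/f replicate 2 at 1375.7 CPM below Klf9 +/+ replicate 3 at 1411 CPM. Per kb of coding sequence they also overlapped, again with Klf9 f/f replicate 2 below Klf9 +/+ replicate 3. Per kb of exon, the ratio of the means was 1.25 within YTa22 (2 against 2 samples) and 1.42 within YTa32 (1 against 1). Because Acsl3 and Acsbg1 make up most of this sum, it mainly follows those genes, and it was given no test. In such pooled tissue, more cells of a type and more RNA per cell cannot be told apart.

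Gene by gene, the genotypes were compared with edgeR's quasi-likelihood test over all 15056 genes, with the library series as a term, and the study's threshold of 1.2-fold and an unadjusted p under 0.05 was used for calls. At this threshold Acsl3, Acsbg1, Acsl6 and Acss1, the 4 genes of highest level, were called higher in Klf9 f/f, and 0 of the 10 were called lower. Over all genes, 1.82% were called higher and 2.5% lower. None of the 10 had an adjusted p under 0.05 in edgeR's quasi-likelihood test (Benjamini-Hochberg adjustment, 1.00 for each), and neither did any of the other genes tested (0.0%), of which 650 had an unadjusted p under 0.05. DESeq2 gave 7 genes higher and 32 lower at an adjusted p under 0.05, with 0 of the 10 synthetases among them. The called genes are named in the study from these same samples, so that their count is not independent evidence of a direction. Of the 10 log2 fold changes, 8 were positive and the median was 0.19, against a median of 0.00084 and 50.2% positive over all genes tested.

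The promoters of the called genes are shown here because KLF family factors are known to bind GC-rich and CACCC elements. Any part of such binding in the calls was not tested. Each sequence covers the 250 bases upstream of a RefSeq transcription start on GRCm38.p6, 5′ to 3′ on the gene's own strand. Capitals mark the GC box GGGCGG and the CACCC box (CACCC), on either strand, so that CCGCCC and GGGTG are also in capitals. The windows are chr1:78657575-78657824 (plus) for Acsl3, chr9:54661886-54662135 (minus) for Acsbg1, chr11:54303954-54304203 (plus) for the second of 3 Acsl6 starts, and chr2:150668241-150668490 (minus) for Acss1.
Acsl3: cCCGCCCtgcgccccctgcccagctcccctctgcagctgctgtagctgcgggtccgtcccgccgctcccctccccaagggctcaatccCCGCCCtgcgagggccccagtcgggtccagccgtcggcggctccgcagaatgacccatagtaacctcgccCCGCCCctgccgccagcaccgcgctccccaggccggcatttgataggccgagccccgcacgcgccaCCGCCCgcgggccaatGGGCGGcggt
Acsbg1: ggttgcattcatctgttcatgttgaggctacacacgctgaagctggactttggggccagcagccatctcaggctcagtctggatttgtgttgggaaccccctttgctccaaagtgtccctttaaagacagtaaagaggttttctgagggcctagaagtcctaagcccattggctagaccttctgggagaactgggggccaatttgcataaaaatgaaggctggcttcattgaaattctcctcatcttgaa
Acsl6: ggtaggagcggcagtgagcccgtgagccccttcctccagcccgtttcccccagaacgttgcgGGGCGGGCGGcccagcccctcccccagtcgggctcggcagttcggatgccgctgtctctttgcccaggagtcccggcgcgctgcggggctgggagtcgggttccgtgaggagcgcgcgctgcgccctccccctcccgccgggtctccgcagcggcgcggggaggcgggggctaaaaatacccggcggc
Acss1: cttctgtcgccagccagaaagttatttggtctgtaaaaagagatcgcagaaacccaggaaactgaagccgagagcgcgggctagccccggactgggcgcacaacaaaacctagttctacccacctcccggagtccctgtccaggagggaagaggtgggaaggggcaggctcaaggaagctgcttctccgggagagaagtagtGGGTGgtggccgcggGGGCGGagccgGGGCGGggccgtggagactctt
Acsl3 held 5 GC boxes and no CACCC box in a window of 75.6% G and C, and Acss1 held 2 GC boxes and 1 CACCC box. This Acsl6 window, of the 3 the one with the most GC boxes, held 2 that overlap each other, and the other Acsl6 starts held 1 each. Acsbg1 held neither motif. Of the 6 windows of the called genes, of which 3 are Acsl6 starts, 5 held a GC box and 2 a CACCC box. Neither motif was particular to the called genes. Of the members not called, Acsl1 (first start), Acsl4, Acss2 and Acsf2 held 4, 2, 4 and 5 GC boxes. Every window of the members not called held a CACCC box. Of 12 windows of 9 members (Acss3 had no entry), 9 held a GC box and 8 a CACCC box. Over 32851 windows of the same length these shares were 32.7% and 52.0%, and the median G and C content was 52.4%, against 48.4% to 75.6% in the windows of the called genes. A match describes letters only, and no binding was measured.

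Among the long-chain enzymes, Acsl3, which supplies acyl-CoA for lipid droplets and phospholipids, was measured at 511, 589 and 466 CPM in Klf9 +/+ replicates 1, 2 and 3. In Klf9 f/f replicates 1, 2 and 3 it was measured at 792, 583 and 653 CPM. Klf9 f/f replicates 1 and 3 were above every control, while replicate 2 lay just below Klf9 +/+ replicate 2. The log2 fold change was 0.38 (SE 0.16, edgeR quasi-likelihood test, unadjusted p = 0.0422), a fold of 1.30, with a log2 difference of 0.31 within YTa22 and 0.49 within YTa32. Of the merged exon bases of Acsl3, 5.72% are shared with Utp14b on the same strand, and reads there count for neither gene.

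Acsl6, an enzyme known for activating docosahexaenoic acid in neural tissue, was measured at 186, 169.7 and 249 CPM in Klf9 +/+ replicates 1, 2 and 3. In Klf9 f/f replicates 1, 2 and 3 it was measured at 273, 186 and 323 CPM. Klf9 f/f replicate 2 equalled Klf9 +/+ replicate 1 to within 1 CPM, and within each genotype the YTa32 sample was the highest. The log2 fold change was 0.37 (SE 0.16, edgeR quasi-likelihood test, unadjusted p = 0.0488), with 0.34 within YTa22 and 0.38 within YTa32.

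The remaining Acsl genes did not pass the threshold. Acsl1 was measured at 18.5, 17.2 and 30.2 CPM in the control samples 1, 2 and 3, and at 20.999, 16.9 and 24.7 CPM in those of Klf9 f/f. The fitted log2 difference was -0.04 (SE 0.16), with a difference of 0.08 in YTa22 and -0.29 in YTa32. Acsl5, which is found on mitochondria and the endoplasmic reticulum, was at 0.03 (SE 0.17), with 0.20 in YTa22 and -0.34 in YTa32. Acsl4 was at 0.13 (SE 0.23), with 0.16 and -0.05. For these 3 genes the difference had opposite signs in the 2 series, and the genotypes overlapped. A test of the genotype by series product term, with 2 residual degrees of freedom, gave no member an unadjusted p under 0.05 and 0 of all genes an adjusted p under 0.05 (231 genes had an unadjusted p under 0.05). The member with the smallest p was Acss3, with a term of -1.97 on the log2 scale (edgeR's quasi-likelihood test, unadjusted p = 0.0765).

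Acsbg1, called lipidosin or bubblegum, was measured at 434, 357 and 405 CPM in Klf9 +/+ replicates 1, 2 and 3. In Klf9 f/f replicates 1, 2 and 3 it was measured at 573, 404 and 626 CPM. As for Acsl3, Klf9 f/f replicates 1 and 3 stood above all controls and replicate 2 stood among them. The log2 fold change was 0.41 (SE 0.17, edgeR quasi-likelihood test, unadjusted p = 0.0424), a fold of 1.33, with 0.29 within YTa22 and 0.63 within YTa32.

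**Figure D3:**
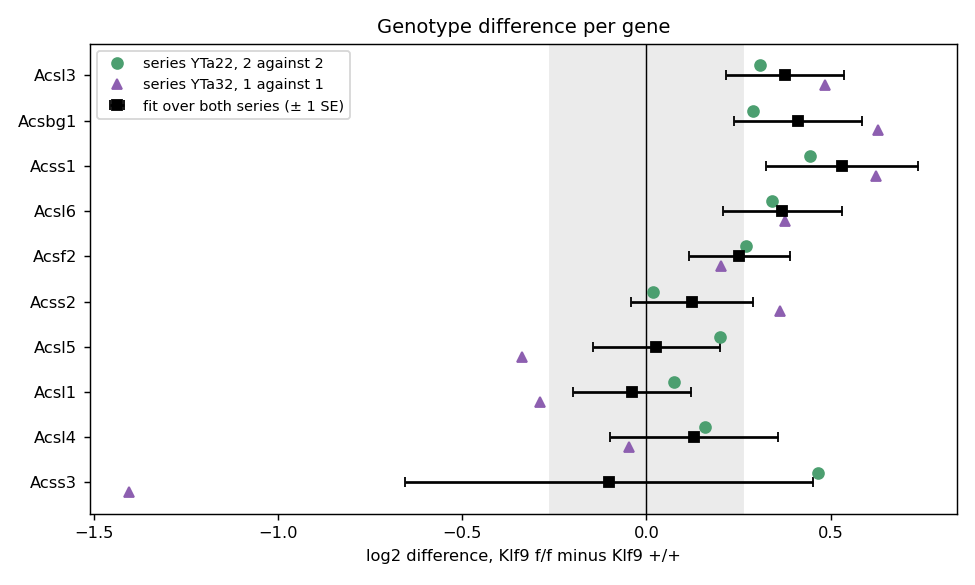
Log2 difference of Klf9 f/f minus Klf9 +/+ for each gene, with the fit over both series and its standard error (squares), the difference within YTa22 (circles) and that within YTa32 (triangles); the gray band marks less than 1.2-fold. The 4 called genes lie beyond the band in both series, Acsf2 lies near its edge, and Acsl1, Acsl4, Acsl5 and Acss3 have opposite signs in the 2 series.

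Of the acetate-activating pair, Acss1 passed the threshold and Acss2 did not. Acss1, which makes acetyl-CoA inside mitochondria, was measured at 81.9, 62.6 and 103.6 CPM in Klf9 +/+ replicates 1, 2 and 3. In Klf9 f/f replicates 1, 2 and 3 it was measured at 128.1, 74.1 and 159.6 CPM. Within YTa22, Klf9 f/f replicate 2 lay between the controls. The log2 fold change of 0.53 (SE 0.21, edgeR quasi-likelihood test, unadjusted p = 0.0296), a fold of 1.44, was the largest of the family, with 0.44 within YTa22 and 0.62 within YTa32.

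Acss2, which makes acetyl-CoA in the cytosol and nucleus, was measured at 71.7, 52.2 and 62.6 CPM in Klf9 +/+ replicates 1, 2 and 3. In Klf9 f/f replicates 1, 2 and 3 it was measured at 67.9, 56.4 and 80.4 CPM. The groups overlapped, and the log2 fold change was 0.12 (SE 0.17, edgeR quasi-likelihood test, unadjusted p = 0.476), with 0.02 within YTa22 and 0.36 within YTa32. The ratio of Acss1 to Acss2 CPM was 1.14, 1.199 and 1.66 in Klf9 +/+ replicates 1, 2 and 3, and 1.89, 1.31 and 1.98 in Klf9 f/f replicates 1, 2 and 3. Within each series the Klf9 f/f ratios were above the Klf9 +/+ ratios, but over all samples the groups overlapped, and the difference between the 2 genes' fold changes was not tested. Of the merged exon bases of Acss2, 7.49% overlap genes of the opposite strand, where unstranded counting leaves reads out. Acss3 had 21, 48 and 78 reads in Klf9 +/+ and 82, 28 and 21 reads in Klf9 f/f replicates 1, 2 and 3. At this depth its log2 fold change of -0.10 had a standard error of 0.55, so that a change of the size seen for Acss1 was not detectable.

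Acsf2, a mitochondrial medium-chain enzyme, was measured at 27.6, 25.1 and 55.7 CPM in Klf9 +/+ replicates 1, 2 and 3. In Klf9 f/f replicates 1, 2 and 3 it was measured at 35.2, 28.7 and 64.0 CPM. It was the single member with every Klf9 f/f sample above the Klf9 +/+ samples of its own series, a pattern met by 7.78% of all genes (5.53% showed the reverse). Its log2 fold change of 0.25 (SE 0.14, edgeR quasi-likelihood test, unadjusted p = 0.0969) did not pass the threshold. The library series separated Acsf2 far more than the genotype did. YTa32 was above YTa22 by 1.04 on the log2 scale (SE 0.14, edgeR quasi-likelihood test, adjusted p = 0.0037). Acsl1 was the other member whose series difference had an adjusted p under 0.05, at 0.57 (SE 0.17, edgeR quasi-likelihood test, adjusted p = 0.0312), and 29.5% of all genes did so. Acsl3 was the single member that was lower in YTa32 than in YTa22, at -0.16 (SE 0.17), a difference within its error.

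The calls rested on a spread that was wide within Klf9 f/f. Of the Klf9 f/f samples of YTa22, replicate 1 exceeded replicate 2 for all 10 members, which held for 49.7% of all genes. For all 10 this gap exceeded the difference between the genotypes in YTa22, as for Acss1 (0.79 against 0.44 on the log2 scale) and Acsbg1 (0.50 against 0.29). The share of all genes with so wide a gap was not counted. A gap between single samples also varies more than a difference of means, so that this count is no trait of the members. In YTa22 all 10 members were higher in Klf9 f/f by the mean, in YTa32 6 of 10 were, and the same 6 (Acsl3, Acsl6, Acsbg1, Acss1, Acss2 and Acsf2) were higher in both, as were 29.3% of all genes. The number of members called higher was 0 when Klf9 f/f replicate 1 was left out and 4 when replicate 2 was. It was 2 without replicate 1 of Klf9 +/+ and 1 without its replicate 2. It was also 0 without either sample of YTa32 and 0 in a fit without the series term. In each of these fits the log2 fold changes of the 4 called genes stayed positive, but without Klf9 f/f replicate 1 Acss1 was at 0.29, Acsbg1 at 0.29, Acsl3 at 0.26 and Acsl6 at 0.20.

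**Figure D4:**
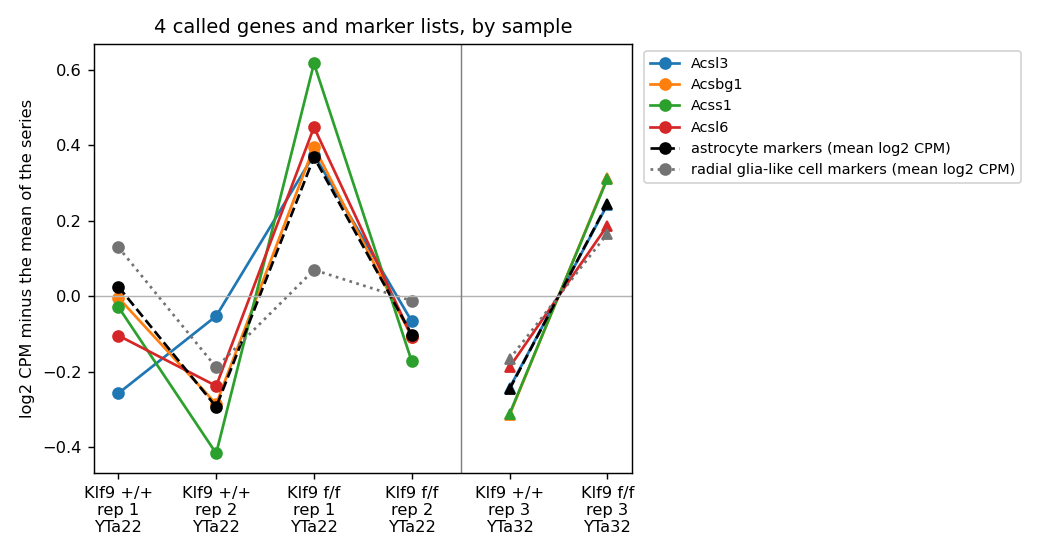
Log2 CPM of the 4 called genes in each sample, minus the gene's mean over its library series, beside the mean log2 CPM of 14 astrocyte markers (dashed) and 11 RGL markers (dotted); circles are YTa22 and triangles YTa32. Klf9 f/f replicate 1 is high for the 4 genes and the astrocyte markers (0.37 above the series mean), and Klf9 f/f replicate 2 lies slightly below the series mean (-0.10 for the astrocyte markers).

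Astrocyte markers, like the called genes, were higher in Klf9 f/f. Between the Klf9 +/+ samples of YTa22 they were higher in replicate 1 (0.03 against -0.29 around the series mean), as were Acsbg1, Acsl6 and Acss1. Acsl3 ran the other way there, at -0.26 in replicate 1 and -0.05 in replicate 2. Of the 14 astrocyte markers, 6 were called higher in Klf9 f/f (Aldoc, S100b, Aldh1l1, Fgfr3, Gfap and Agt), 0 were called lower and 14 were positive. For this and the lists below, the shares over all genes were 1.82% called higher, 2.5% called lower and 50.2% positive. The median log2 fold change of the 14 astrocyte markers was 0.39, against 0.19 for all 10 synthetases. The 4 called synthetases were at 0.37 to 0.53, but a call picks high values. The mean log2 level of the astrocyte markers was higher in Klf9 f/f by 0.27 within YTa22 and by 0.49 within YTa32. RGL markers had a median of 0.13, with 2 of 11 called higher (Gfap, which is in both lists, and Thbs4). Their mean log2 level was higher in Klf9 f/f by 0.06 within YTa22 and by 0.33 within YTa32. Because the driver targets both cell types, the difference between the medians of these lists cannot be assigned to either. Oligodendrocyte lineage markers had a median of -0.09 with 2 of 10 called higher (Cnp and Olig1), and microglia markers a median of 0.03 with 0 of 9 called. Granule neuron markers had a median of 0.03 with 0 of 11 called. The part of the astrocyte markers in the synthetase differences was not tested, and neither was that of other cell types whose markers differed between the genotypes. Choroid plexus markers had a median of -2.65 with 10 of 10 called lower, endothelial and mural markers a median of -1.03 with 6 of 14 called lower, and meningeal markers a median of -0.43 with 1 of 8 called lower. No marker of these 3 lists was positive. Endothelial and mural markers summed to 209 to 713 CPM in Klf9 +/+ and 163 to 301 CPM in Klf9 f/f, and meningeal markers to 807.6 to 1716 CPM and 507 to 1053 CPM.

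The genes whose profile over the 6 samples was most like each leading synthetase were sought among the 10383 genes with a mean of at least 10 CPM. Likeness was the root mean square difference of log2 CPM after centering each gene on its mean over all samples, and all points share libraries and depth. The library series was not removed, so that a shared series difference also makes profiles alike. That difference (YTa32 over YTa22, log2) was 0.59 for Acss1, 0.49 for Acsl6, 0.20 for Acsbg1 and -0.16 for Acsl3. Nearest to Acsbg1 was Slc1a3, the astrocytic glutamate transporter (0.065), followed by Gpc5, a glypican (0.068), and Ppp1r3c, a glycogen-targeting phosphatase subunit (0.075). Nearest to Acss1 was Pcx, pyruvate carboxylase (0.057), then Slc4a4, a bicarbonate cotransporter (0.092), and Pygb, a glycogen phosphorylase (0.094). Slc1a3 and Slc4a4 are in the astrocyte list. Acsl6 was nearest to Jam2 (0.047), Tspan9 (0.058) and Rasa3 (0.061). Acsl3 was nearest to Cyp4v3 (0.076), Lonp2, a peroxisomal protease (0.083), and Mcm6, a subunit of the replicative helicase (0.083). Within the family, Acsl6 and Acss1 were the most alike of the 4 (0.14), and Acsl3 and Acss1 the least (0.42). Many other genes were nearer, since Acsl6 held place 23 in likeness to Acss1, and Acss1 held place 217 in likeness to Acsl6. In likeness to Acsl3, Acss1 held place 7485.

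Genes that work around the synthetases were described by list. Of 73 such genes in 7 lists, 62 were tested and 47 were positive (50.2% of all genes were), with a median log2 fold change of 0.09. Of the 62, 5 were called higher (8.06%, against 1.82% of all genes) and 1 was called lower (2.5% of all genes were). In the same edgeR fit, 0 of the 62 had an adjusted p under 0.05. The 5 higher calls had an unadjusted p of 0.0342 to 0.0497 (edgeR quasi-likelihood test). No fits with a sample left out are given for them. Among 7 further synthetases tested of 15, the fatty acid transport protein Slc27a1 was called higher, from a mean of 281 to 354 CPM, with a log2 fold change of 0.32 (SE 0.13). The list's median was 0.26 and 6 of 7 were positive. The medium-chain genes Acsm1 to Acsm5, and Acsbg2, Slc27a5 and Slc27a6, were under the filter, and Acsm1 had 0 reads in all samples.

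Genes that supply coenzyme A or carry acyl-CoA gave no calls. The 7 genes of coenzyme A synthesis had a median of 0.07, from -0.18 for Pank3 to 0.15 for Ppcs. The 6 acyl-CoA binding genes had a median of 0.04, and Dbi, the acyl-CoA binding protein, was abundant at a mean of 2641 CPM with a log2 fold change of 0.07 (SE 0.20). Of 6 genes of acetyl-CoA supply and use, Acly, which makes cytosolic acetyl-CoA from citrate, was at -0.0038 (SE 0.15), Fasn, the fatty acid synthase, at 0.19 (SE 0.15), and Slc25a1, the citrate carrier, at 0.04 (SE 0.14).

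Genes that hydrolyse or consume acyl-CoA were mixed. Of 11 thioesterases tested, Acot11 was called higher at 0.37 (SE 0.15) and Them4 lower at -0.35 (SE 0.13), with a list median of 0.11. In the carnitine shuttle, which carries acyl groups into mitochondria, Cpt2 was called higher at 0.34 (SE 0.15), while the other 5 genes tested, Cpt1a among them at 0.24 (SE 0.18), were not called. Of 19 acyltransferases tested, Agpat3 and Mboat7, which build and remodel phospholipids, were called higher at 0.28 (SE 0.12) and 0.31 (SE 0.13), 16 of 19 were positive, and the median was 0.06. These 5 calls, and that of Slc27a1, had the same sign in both library series.

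**Figure D5:**
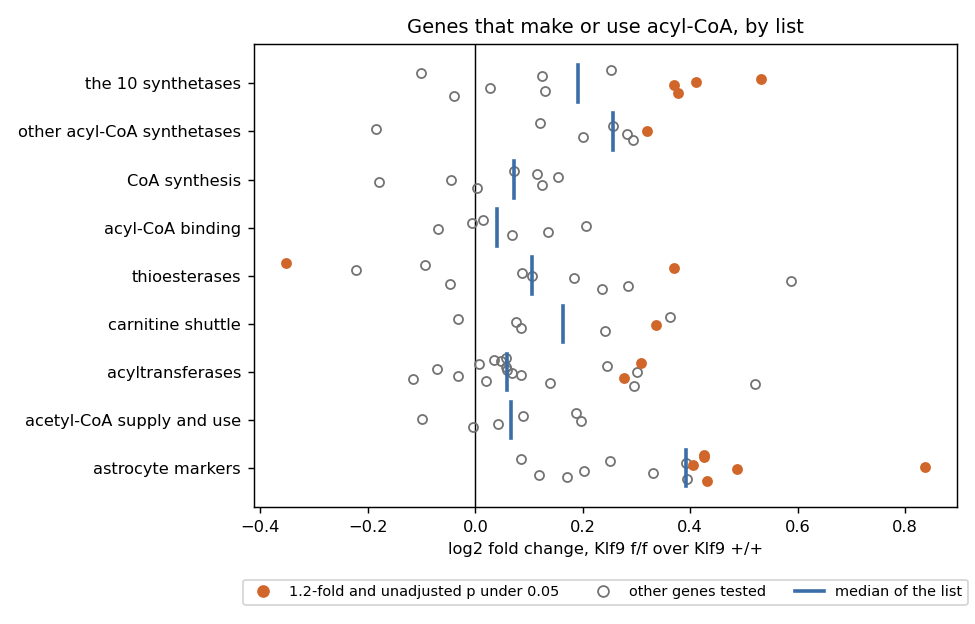
Log2 fold change of Klf9 f/f over Klf9 +/+ for each tested gene of the 10 synthetases, of 7 lists of acyl-CoA genes and of the astrocyte markers; filled points passed 1.2-fold and an unadjusted p under 0.05, and vertical bars are list medians. The medians run from 0.04 for acyl-CoA binding to 0.26 for the other synthetases, with 0.19 for the 10 synthetases and 0.39 for the astrocyte markers.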

How the data were processed

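By the study's methods, libraries (Clontech SMARTer v4) were sequenced as 50 bp reads, mapped with STAR to mm9 and counted per gene with HTSeq without strand. The counts were deposited by the authors as whole numbers without normalization, and reads that overlapped several genes (1.35% to 2.64% of each library) or mapped to several places (7.63% to 13.6%) are in none of them. Alignment was not repeated. Of 37620 gene identifiers, 415 had no GENCODE M1 name.

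A gene was kept if any sample exceeded 1 CPM. The quasi-likelihood fit of edgeR (version 4.0.16, R 4.3.3; glmQLFit, glmQLFTest) used TMM factors and a term for the library series, which left 3 residual degrees of freedom. Standard errors were obtained as |log2 fold change|/√F, and log2 CPM used a prior count of 2. The fit was first tested on simulated data. Within-series values are differences of mean log2 CPM, and YTa32, with 1 sample per genotype, has no test. The p-values rest on the spread between these pooled samples. In edgeR each gene's spread is estimated with information from the other genes, and not from its own samples alone.

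The members and gene lists were chosen with earlier results of these data known. The genes named are the members, Klf9, called or most abundant genes of each pathway list, the 3 genes nearest in profile to each of the 4 leading members, and markers beside results. Pank3, Ppcs and Cpt1a were named after their values were seen. Alternatives were DESeq2 1.42.0, the likelihood-ratio test, upper-quartile scaling, other filters, no series term, each sample left out, YTa22 alone and other lengths. Promoters are from RefSeq (GRCm38.p6), and no protein sequences were analysed here. Plots were made in matplotlib 3.10.9.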

Additional observations from a re-analysis of the deposited data

How the results depend on the processing

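The count of members called higher was 4 in the fit as reported and 0 without the series term and in YTa22 alone. It was 3 to 4 under DESeq2, the likelihood-ratio test, upper-quartile scaling and the other filters, and 0 to 4 with each sample left out in turn. A YTa32 sample left alone adds nothing to the genotype difference, so that those fits rest on YTa22. The count called lower, and that at an adjusted p under 0.05, was 0 in all 13 alternatives. The median log2 fold change stayed between 0.12 and 0.32. Acsl3, Acsbg1 and Acss1 were each called in 7 of 13 alternatives and Acsl6 in 5 of 13, with positive values in 13 of 13. With a sample left out, Acsl3 ranged from 0.26 to 0.51, Acsl6 from 0.20 to 0.51, Acsbg1 from 0.29 to 0.57 and Acss1 from 0.29 to 0.74, each lowest without Klf9 f/f replicate 1. Acsl1, Acsl4, Acsl5, Acss2 and Acss3 changed sign in some fits. In YTa22 alone Acsl1 was at 0.080, Acss2 at -0.00032 and Acss3 at 0.53. With each sample left out, Acsl1 ranged from -0.17 to 0.085, Acsl4 from -0.17 to 0.31, Acsl5 from -0.10 to 0.20, Acss2 from -0.00015 to 0.30 and Acss3 from -0.71 to 0.53. The cause was not tested. The share of Acsl3 was 38.8% with no division by length, 39.8% with coding length and 39.4% in YTa32 alone, against 45.0% as reported. Over all genes, the calls ranged from 50 higher and 163 lower without the series term to 513 higher and 926 lower with no filter beyond 1 count, where 56 and 278 genes had an adjusted p under 0.05. The coding length came from GENCODE M1 and was chosen after seeing the data, in place of a RefSeq protein length that was not run. No paired analysis was possible because the labels give no replicate numbers. Acss3, with 21 to 82 reads per sample, was limited by its low counts in both series.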
